A study of Homo sapiens with 6 samples.

Results

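Mitochondrial ribosomal protein genes were the members described here, taken as every symbol of the form MRPL or MRPS followed by a number and at most 1 letter from A to C. The count tables held 83 such entries among 25737, and they carried 77 different symbols. MRPS18B was listed 7 times, and 6 of those entries had 0 counts in all libraries, so that 77 entries, 1 per symbol, remained with counts. By the letter of the symbol, 48 belonged to the large subunit (MRPL) and 29 to the small subunit (MRPS). The libraries came from A549 cells, an established line of lung carcinoma epithelial cells, and BEAS-2B cells, an established immortalized line of bronchial epithelial cells, both of them labelled wild type. Each line was left untreated or received 1 or 5 ng/mL of transforming growth factor beta 1 (TGF-β1) for 48 h, in RPMI 1640 medium with 1% fetal bovine serum for the treated cells, and the labels do not give the serum of the untreated cells. There was 1 library for each of the 6 conditions, made from total RNA with a kit that reads the 3′ ends of mRNAs, so no condition had a replicate. No test was made within a line. The only test is 1 over both lines, with the cell line as a block.

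Mitochondria carry their own ribosome, which translates the few membrane proteins of the respiratory chain and the ATP synthase that are encoded in mitochondrial DNA. Its RNAs are made inside the organelle, while all of its proteins are encoded by nuclear genes, made in the cytosol and imported. The small subunit decodes the mRNA and the large subunit forms the peptide bond, and besides proteins with a bacterial counterpart each subunit holds proteins found only in mitochondria. TGF-β1 is the growth factor used here to induce the epithelial–mesenchymal transition and matrix production studied as a model of pulmonary fibrosis.

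Total counts ranged from 4120624 to 7841350 per library, the largest being A549 cells at 1 ng/mL. Counts were divided by the effective library size (edgeR TMM factors) and are given as normalized counts. The ND value was taken as log2(normalized count + 1), and a log2 FC is the difference of 2 ND values. A gene was called upregulated or downregulated by the criteria of the study, an FC of at least 2 with an ND value of at least 7, required here in at least 1 of the 2 libraries compared. Fold values of single genes are ratios of normalized counts without the added 1, with exact 95% Clopper-Pearson intervals, which cover counting error only and not the variation between cultures. Counts are shares of a library, so a lower count of 1 mRNA and a rise of the other mRNAs of the cell cannot be told apart. The treated libraries carried the response to TGF-β1: COL1A1, FN1 and TGFBI were upregulated at 5 ng/mL in both lines, with log2 FC from 1.54 to 4.33. Of 5 epithelial markers (EPCAM, CDH1, KRT8, KRT18 and KRT19), 3 reached the ND value of 7 in A549 cells at 0 or 5 ng/mL. KRT8 and CDH1 were downregulated there (log2 FC -2.12 and -6.49), and the third was not called. In BEAS-2B cells 2 reached it, with a median log2 FC of -0.77 and 0 called. CDH1 had at most 2 counts and EPCAM 0 counts in every BEAS-2B library. Of 3 keratins of basal airway cells, KRT17 was upregulated in BEAS-2B cells (3.78), and KRT5 and KRT14 had at most 1 count in any library. The blood and endothelial markers did not exceed 6 counts in any library. The part of these shifts in the values below was not tested. No transcript encoded in mitochondrial DNA was listed (0 entries), so the mRNAs and rRNAs of the mitoribosome's own genome were not analysed here.

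Without any minimum on the level, 21 of the 77 genes were lower by an FC of at least 2 in A549 cells at 5 ng/mL (27.3%), and 2 were higher, MRPL37 and MRPL55. Among all entries with a count in at least 1 of the same 2 libraries, 25.3% were lower by this limit. The 21 comprised 16 of 48 large-subunit genes (33.3%) and 5 of 29 small-subunit genes (17.2%). In BEAS-2B cells 8 of the 77 were lower (10.4%) and 0 were higher, against 19.3% of all entries being lower. All 8 were large-subunit genes (MRPL13, MRPL32, MRPL33, MRPL34, MRPL36, MRPL39, MRPL45 and MRPL49), and all 8 were among the 21 of A549 cells. The shares of all entries given here take in entries with as few as 1 count, whereas no member had fewer than 2 counts in any library. They are not shares of entries at the level of the members, and the share of entries that were higher was not computed without a minimum. Shares over a minimum are given below. Most members moved by less than an FC of 2. In A549 cells 37 members were lower beyond the counting interval, 26 were higher beyond it and 14 lay within it. The corresponding numbers in BEAS-2B cells were 31, 14 and 32. Over the minimum given below, 33 of 68 members were lower and 24 higher beyond the interval in A549 cells, against 2632 and 3181 of all 7115 entries. In BEAS-2B cells 23 of 57 were lower and 13 higher, against 2373 and 2581 of 6735.

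**Figure D1:**
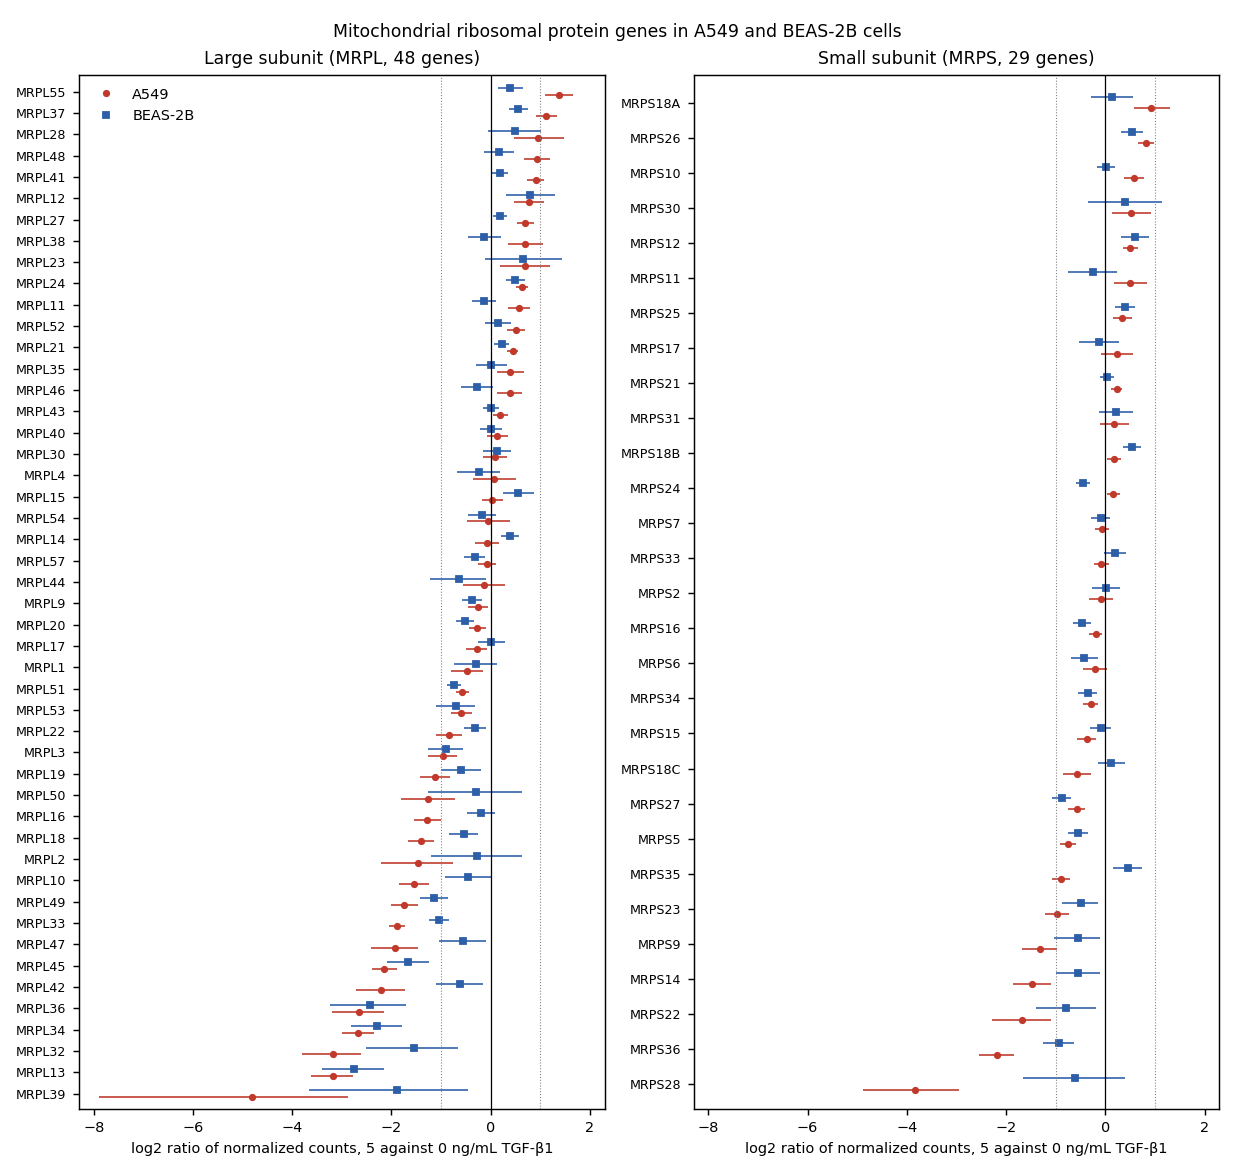
Log2 ratio of normalized counts at 5 against 0 ng/mL TGF-β1 for the 48 large-subunit and the 29 small-subunit genes, ordered by the value in A549 cells (red circles, with BEAS-2B cells as blue squares). Bars are exact 95% counting intervals of 1 library against 1 library, and dotted lines mark an FC of 2. Near the lower end of the large-subunit panel, MRPL39, MRPL13, MRPL32, MRPL34, MRPL36, MRPL45, MRPL33 and MRPL49 lie below -1 in both lines, whereas the lowest small-subunit genes, MRPS28 and MRPS36, do so in A549 cells only.

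With the minimum on the ND value, 40 of the 48 large-subunit genes could be called in A549 cells at 5 ng/mL. Of these, 13 were downregulated and 2 upregulated, where 17.1% of all 7115 entries tested were downregulated and 16.1% upregulated. The median log2 FC was -0.26 for the large subunit and 0.11 for all entries. The small subunit, with 28 of 29 genes over the minimum, had 4 downregulated and 0 upregulated genes and a median of -0.08. Of the 17 downregulated members, 11 passed the minimum through the control library alone and therefore had to be lower, so these counts and medians are a description of the genes over the minimum and not of the whole family. At the looser limit of 1.5, 16 large-subunit genes were lower and 8 higher, and 7 small-subunit genes were lower and 2 higher, against 26.2% and 29.9% of all entries. The lower genes include the same 11. Among the higher ones, MRPL38 and MRPS18A passed the minimum through the treated library alone and had to be higher.

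In BEAS-2B cells at 5 ng/mL, 34 large-subunit genes were over the minimum, and 5 were downregulated, 3 of which (MRPL13, MRPL34 and MRPL45) passed the minimum through the control library alone, and 0 were upregulated. Among all 6735 entries 11.6% were downregulated and 7.33% upregulated. The median log2 FC of the large subunit was -0.15 and that of all entries 0.03. None of the 23 small-subunit genes over the minimum was called (0 in either direction), and their median was -0.09. At the limit of 1.5, 9 large-subunit genes were lower and 0 higher, and 2 small-subunit genes were lower and 1 higher, against 22.2% and 19.2% of all entries. Of the 9, MRPL13, MRPL19, MRPL3, MRPL34, MRPL45 and MRPL53 passed the minimum through the control library alone and had to be lower. The counts thus describe only the genes over the minimum.

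Over both lines, 7 large-subunit genes were lower and 0 higher at 5 than at 0 ng/mL, and 1 small-subunit gene was lower and 0 higher. The test was edgeR's quasi-likelihood test with Benjamini-Hochberg adjustment over 13157 entries, with an adjusted p limit of 0.05, the dose as a factor and the cell line as a block, added after the data were seen. All 77 genes were tested, and 6.76% of all entries were lower and 3.97% higher by this test. The 7 were MRPL13 (log2 FC of the fit -2.98, adjusted p = 0.00348), MRPL34 (-2.50, 0.00729), MRPL36 (-2.55, 0.00729), MRPL45 (-1.92, 0.00792), MRPL49 (-1.43, 0.0208), MRPL33 (-1.49, 0.021) and MRPL32 (-2.54, 0.0423). The small-subunit gene was MRPS36 (-1.55, 0.0307), which is counted there by its symbol. Its protein is now assigned to the α-ketoglutarate dehydrogenase complex rather than to the ribosome, and no other small-subunit gene was called. At an unadjusted p under 0.05, 16 large-subunit genes were lower and 4 higher, and 8 small-subunit genes were lower and 2 higher. Of all 13157 entries, 2116 were lower and 1728 higher at this unadjusted limit. DESeq2 with the same terms called 8 and 1 lower and 0 higher in either subunit, where it called 1003 of all 12646 entries lower and 762 higher. At 1 ng/mL the test called MRPL13, MRPL33, MRPL34, MRPL36 and MRPL45 lower, against 1.69% of all entries, and 0 members higher, against 1.16%. No small-subunit gene was called at that dose (0 by edgeR and 0 by DESeq2), with 3 lower and 1 higher at an unadjusted p under 0.05 in edgeR. At that unadjusted limit 1463 of all 13157 entries were lower and 1241 higher. The spread in this fit has 2 residual degrees of freedom and comes from the unequal responses of the lines, so the p-values concern what both lines shared and not the variation between cultures of 1 line.

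The 5 genes downregulated in both lines were MRPL13, MRPL33, MRPL34, MRPL45 and MRPL49. None was upregulated in both (0 genes), and among all 5832 entries over the minimum in both lines 6.5% were downregulated in both and 3.79% upregulated in both. MRPL13, a large-subunit protein with a bacterial counterpart, had normalized counts of 438, 70.8 and 48.1 at 0, 1 and 5 ng/mL in A549 and of 220, 51.8 and 32.7 in BEAS-2B cells. Both treated libraries were far below the control in each line. At 5 ng/mL it was 9.11-fold lower in A549 cells (interval 6.82 to 12.4) and 6.71-fold lower in BEAS-2B cells (4.44 to 10.5).

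MRPL34, a small conserved protein that also has a bacterial counterpart, followed the same course, with 579, 115 and 90.7 normalized counts in A549 and 245, 109 and 50.4 in BEAS-2B cells. It was 6.39-fold lower (5.14 to 8) in A549 and 4.87-fold lower (3.46 to 7) in BEAS-2B cells, where it also fell below the count at 1 ng/mL by a log2 FC of -1.10. MRPL45, which lies near the exit of the peptide tunnel and helps to hold the ribosome at the inner membrane, had 679, 217 and 153 normalized counts in A549 and 251, 115 and 79.4 in BEAS-2B cells. It was 4.43-fold lower (3.73 to 5.29) and 3.16-fold lower (2.38 to 4.25) at 5 ng/mL, and the counts decreased at each step in both lines. In each of these genes the larger part of the decrease was already present at 1 ng/mL.

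MRPL49, a protein found only in mitochondrial ribosomes, had 469, 286 and 141 normalized counts in A549 and 406, 223 and 184 in BEAS-2B cells, being 3.34-fold (2.77 to 4.04) and 2.21-fold lower (1.82 to 2.69) at 5 ng/mL. In A549 cells it was the gene of the 5 with the largest step between the doses, a log2 FC of -1.02. MRPL33, another small protein with a bacterial counterpart, had the highest control level of the 5, with 1455, 251 and 391 normalized counts in A549 and 819, 268 and 398 in BEAS-2B cells. It was 3.72-fold (3.33 to 4.16) and 2.06-fold lower (1.8 to 2.35) at 5 ng/mL. Unlike the other 4, it was higher at 5 than at 1 ng/mL in both lines, 1.56-fold (1.35 to 1.79) in A549 and 1.49-fold (1.25 to 1.77) in BEAS-2B cells.

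In the GENCODE annotation of build GRCh38, MRPL33 lies on the plus strand of chromosome 2 (chr2:27771717-27988087), MRPL34 on the plus strand of chromosome 19 (chr19:17292609-17306843), MRPL45 on the plus strand of chromosome 17 (chr17:38297023-38323218) and MRPL49 on the plus strand of chromosome 11 (chr11:65122183-65127371). These 4 genes lie on different chromosomes. The 3′ end of MRPL49 overlaps SYVN1 on the other strand, and 1 of 2 named pseudogenes of MRPL45 has an entry of its own in the counts. The strand setting of the counting is not given in the sources used here, so reads of the MRPL49 and SYVN1 transcripts where they overlap cannot be told apart.

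**Figure D2:**
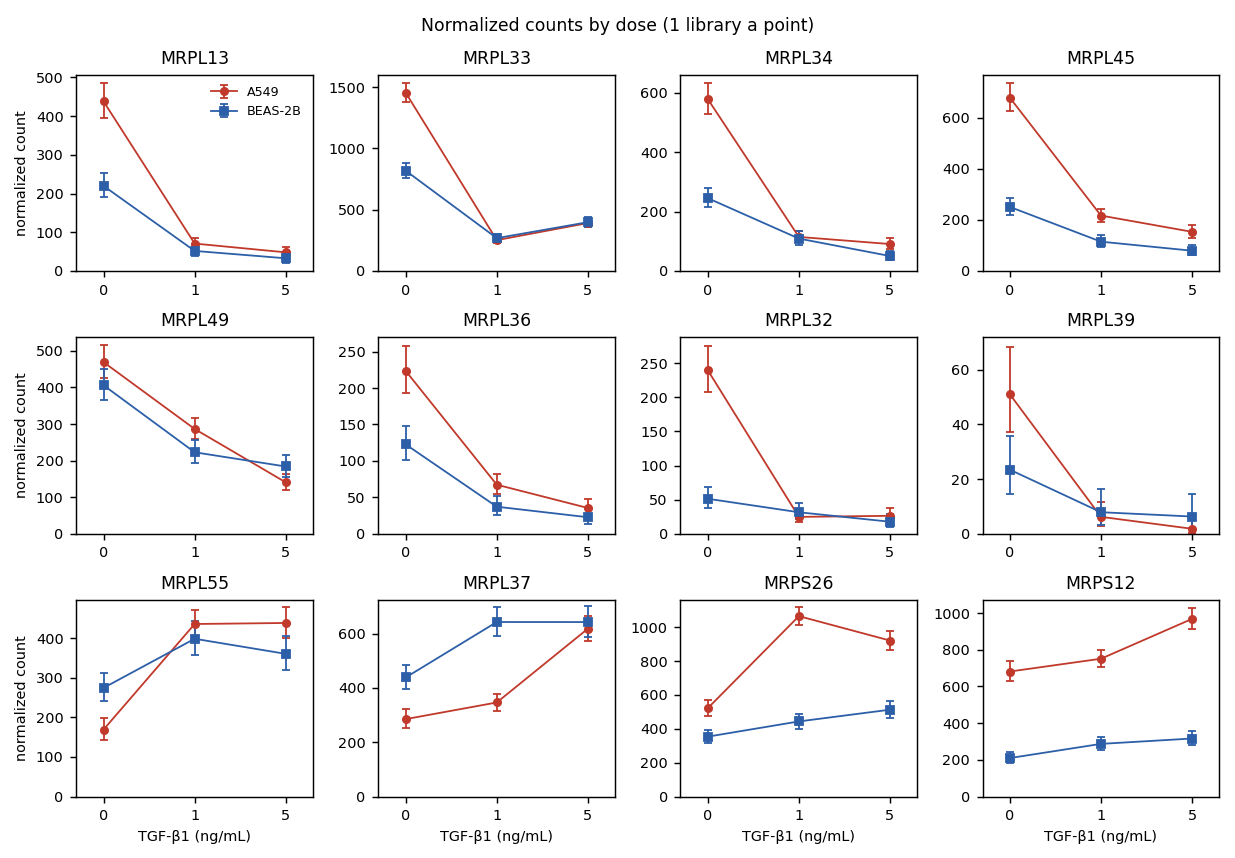
Normalized counts (linear axes starting at 0) of 12 genes at 0, 1 and 5 ng/mL TGF-β1 in A549 (red) and BEAS-2B cells (blue), 1 library a point, with exact 95% counting intervals as bars. The first 8 panels show large-subunit genes that were lower by an FC of at least 2 in both lines, and MRPL33 alone among them was higher at 5 than at 1 ng/mL in both. The last row shows MRPL55, MRPL37, MRPS26 and MRPS12, whose treated libraries were above the control in both lines.

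The other 3 genes that were lower in both lines had low counts in BEAS-2B cells. MRPL36, a very small protein with a bacterial counterpart, had 193, 98 and 39 counts in A549 and 110, 33 and 18 in BEAS-2B cells. It was 6.32-fold (4.46 to 9.16) and 5.41-fold lower (3.27 to 9.47) at 5 ng/mL. MRPL32, which is matured by the m-AAA protease of the inner membrane, had 207, 36 and 29 counts in A549 and 46, 28 and 14 in BEAS-2B cells, a decrease of 9.12-fold (6.16 to 14) and of 2.91-fold (1.57 to 5.73). MRPL39 had the lowest level of all members, with 44, 9 and 2 counts and 21, 7 and 5 counts. The 2 counts of the treated A549 library gave a ratio of 0.0356 with a counting interval from 0.00418 to 0.136, and the ratio in BEAS-2B cells was 0.269 (0.0792 to 0.733). MRPL36 stayed below the minimum in BEAS-2B cells, and MRPL32 and MRPL39 were far below it there.

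The 2 genes upregulated in A549 cells at 5 ng/mL encode mitochondria-specific proteins of the large subunit. MRPL55 had 169, 436 and 438 normalized counts at 0, 1 and 5 ng/mL in A549 and 274, 398 and 360 in BEAS-2B cells. It was 2.59-fold higher (2.15 to 3.14) at 5 ng/mL in A549 and 1.31-fold higher (1.1 to 1.56) in BEAS-2B cells, so that the untreated lines differed and the treated libraries were closer. MRPL37 had 285, 346 and 618 normalized counts in A549 and 438, 643 and 642 in BEAS-2B cells, a rise of 2.17-fold (1.87 to 2.52) and of 1.47-fold (1.28 to 1.68). In A549 cells most of its increase came between 1 and 5 ng/mL, at 1.78-fold (1.59 to 2.01), whereas the 2 treated BEAS-2B libraries were equal at a ratio of 1 (0.886 to 1.13).

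Among genes over the minimum, MRPS18A, MRPL48 and MRPL41 came next in A549 cells, with log2 FC of 0.92, 0.92 and 0.91 at 5 ng/mL. Their values in BEAS-2B cells were 0.13, 0.17 and 0.19. MRPL28, under the minimum, had 0.95 in A549 cells. Among genes over the minimum, the highest values in BEAS-2B cells belonged to MRPS12, a protein of the decoding site, at 0.59, MRPL15 at 0.56, MRPL37 at 0.55, MRPS26 at 0.53 and MRPS18B at 0.53. Under the minimum, MRPL12 and MRPL23 had 0.78 and 0.63 in BEAS-2B cells. MRPS12 had 681, 751 and 968 normalized counts in A549 and 210, 287 and 316 in BEAS-2B cells, increasing at each step in both. MRPS26 had 521, 1065 and 921 in A549 cells, where it was upregulated at 1 ng/mL (log2 FC 1.03) and stood at 0.82 at 5 ng/mL, and 354, 443 and 513 in BEAS-2B cells. MRPL15 was level in A549 cells, with 379, 385 and 387 normalized counts, and had 180, 286 and 265 in BEAS-2B cells.

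In the small subunit the lowest genes over the minimum in A549 cells were MRPS28, MRPS36, MRPS14 and MRPS9. MRPS28 had 123, 50 and 11 counts in A549 and 24, 21 and 14 in BEAS-2B cells. It was 14.3-fold lower (7.71 to 29.4) in A549 cells, and its BEAS-2B ratio of 0.659 had an interval from 0.315 to 1.33, which includes no difference. The MRPS28 entry overlaps AC036214.3 on the same strand. MRPS36, whose protein is now assigned to the α-ketoglutarate dehydrogenase complex rather than to the ribosome, had 371, 142 and 81.7 normalized counts in A549 and 294, 158 and 154 in BEAS-2B cells. It was 4.54-fold lower (3.58 to 5.8) in A549 and 1.92-fold lower (1.54 to 2.39) in BEAS-2B cells. MRPS14 was 2.77-fold lower (2.12 to 3.64) and 1.46-fold lower (1.08 to 1.99), and MRPS9 2.5-fold (1.96 to 3.21) and 1.47-fold lower (1.07 to 2.03). MRPS22, under the minimum in all libraries with 90, 75 and 36 counts in A549 cells, was 3.19-fold lower (2.15 to 4.84) there, between MRPS36 and MRPS14.

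The paralogs of the MRPS18 group, of which MRPS18C is the counterpart of the bacterial protein and MRPS18A sits in the large subunit, did not move alike. MRPS18A had 107, 147 and 203 normalized counts in A549 cells, increasing at each step, and 108, 109 and 118 in BEAS-2B cells. MRPS18B had 755, 657 and 851 in A549 and 514, 718 and 743 in BEAS-2B cells. MRPS18C had 268, 215 and 181 in A549 cells, decreasing at each step, and 252, 314 and 275 in BEAS-2B cells. At 5 ng/mL the ratio of MRPS18C was 0.675 in A549 cells (0.555 to 0.819) and 1.09 in BEAS-2B cells (0.9 to 1.32). MRPS18A and MRPS18C each overlap another gene on the opposite strand (RSPH9 and ABRAXAS1).

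The lines agreed in sign for 28 of the 33 large-subunit genes over the minimum in both (84.8%) and for 17 of 23 small-subunit genes (73.9%), where 73.4% of all 5832 entries agreed. Across the 33 large-subunit genes the log2 FC of the lines had a Pearson's r of 0.90 and a Spearman's rho of 0.83, across the small-subunit genes 0.66 and 0.65, and across all entries 0.68 and 0.62. Of the genes of the cytosolic ribosome over the minimum in both lines, 69 of 77 agreed in sign (89.6%), with a Pearson's r of 0.83. These values are across genes, which are not replicates and share the 4 libraries and their scaling, so they describe these libraries only. MRPL13, MRPL34 and MRPS14 passed the minimum through the control library alone in both lines, at 5 and at 1 ng/mL. Their agreement was therefore fixed by the minimum, and they enter the correlations. The absolute log2 FC was larger in A549 cells for 25 of the 33 large-subunit genes and for 12 of the 23 small-subunit genes. The same was found for 3643 of all 5832 entries and for 58 of the 77 genes of the cytosolic ribosome. At 1 ng/mL fewer members agreed, 24 of 36 large-subunit and 13 of 24 small-subunit genes, against 66.6% of all entries.

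**Figure D3:**
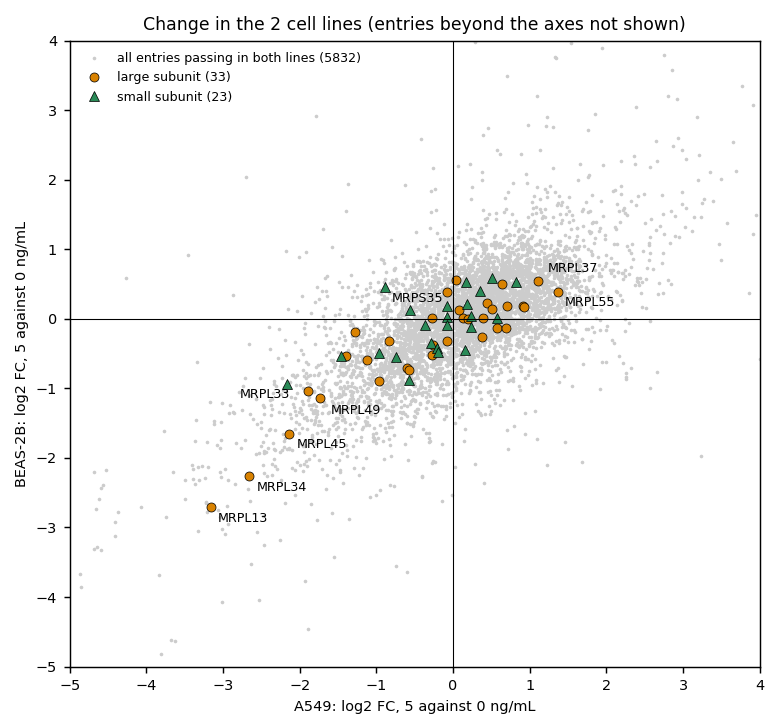
Log2 FC at 5 against 0 ng/mL TGF-β1 in A549 cells (horizontal) and BEAS-2B cells (vertical) for the 33 large-subunit genes (orange circles) and 23 small-subunit genes (green triangles) over the minimum in both lines, with all 5832 entries in gray. The 5 genes downregulated in both lines form the lower left end of the large-subunit points, and MRPS35 stands apart, low in A549 and high in BEAS-2B cells.

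Of the members over the minimum in both lines, MRPS35 and MRPS24 lay beyond the counting interval in opposite directions at 5 ng/mL. MRPS35, a protein found only in mitochondrial ribosomes, had 753, 509 and 406 normalized counts in A549 and 204, 244 and 280 in BEAS-2B cells, falling at each step in the one and rising in the other. It was 1.86-fold lower (1.64 to 2.1) in A549 and 1.37-fold higher (1.12 to 1.68) in BEAS-2B cells. The treated libraries were thus nearer to each other than the untreated ones, where A549 cells had 3.69 times the count of BEAS-2B cells (3.13 to 4.37). MRPS24 had 966, 1125 and 1078 normalized counts in A549 and 1180, 888 and 864 in BEAS-2B cells, a ratio at 5 ng/mL of 1.12 (1.02 to 1.22) in the one, which turned below 1 with total counts as the scaling (log2 FC -0.047), and of 0.732 (0.664 to 0.807) in the other. Its reads cannot be separated from those of the readthrough transcript URGCP-MRPS24. Next to MRPS35, the largest differences of log2 FC between the lines among genes over the minimum in both were found for MRPS36 (A549 minus BEAS-2B -1.24), MRPL16 (-1.09), MRPL55 (0.98) and MRPS14 (-0.92). MRPL16, a protein near the tRNA sites of the large subunit, had 379, 61.1 and 156 normalized counts in A549 and 271, 186 and 238 in BEAS-2B cells. It was the lowest at 1 ng/mL in both lines and at 5 ng/mL was 2.55-fold (1.96 to 3.33) and 1.28-fold (1.04 to 1.59) above that dose.

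The spread within the family was wider than counting error. The SD of the log2 FC at 5 ng/mL was 1.24 over the large-subunit genes in A549 cells, 0.98 over the small-subunit genes and 1.33 over all entries, where counting error alone gave 0.14, 0.15 and 0.17. In BEAS-2B cells these SDs were 0.75, 0.45 and 0.94. Without the 5 genes downregulated in both lines, the large subunit had a median of -0.07 and an SD of 1.09 in A549 and a median of 0.00 and an SD of 0.40 in BEAS-2B cells. The 5 genes, chosen by these values, therefore made up much of the spread of the large subunit in BEAS-2B cells and little of it in A549 cells. The genes nearest to the median of the family were MRPS16, MRPS2 and MRPL57 in A549 cells (log2 FC -0.20, -0.08 and -0.08) and MRPS17, MRPL11 and MRPL38 in BEAS-2B cells (-0.12, -0.13 and -0.13).

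At 1 ng/mL, 9 large-subunit genes were downregulated and 1 upregulated (MRPL55) in A549 cells, and 3 small-subunit genes were downregulated and 1 upregulated (MRPS26), against 12.6% and 10.9% of all entries. In BEAS-2B cells 4 large-subunit genes were downregulated and 1, MRPL12, was upregulated, and 0 small-subunit genes were called, against 9.13% and 5.66% of all entries. In A549 cells 7 of the 9 and 2 of the 3 downregulated genes passed the minimum through the control library alone, as did 3 of the 4 in BEAS-2B cells, and MRPL12 passed it through the treated library alone, so these counts describe only the genes over the minimum. MRPL12, a protein of the flexible stalk that also binds the mitochondrial RNA polymerase, had 64.7, 162 and 112 normalized counts in BEAS-2B cells and 158, 209 and 269 in A549 cells. Both doses of a line share its control, and the direct comparison of 5 with 1 ng/mL gave few calls. MRPL16 was the only member upregulated and MRPL49 the only member downregulated in A549 cells, against 1.61% and 1.79% of all entries, and 0 members were called in BEAS-2B cells, against 0.492% and 0.412%. Of the 48 large-subunit genes, 17 decreased at each step and 13 increased at each step in A549 cells, and 16 decreased and 4 increased in BEAS-2B cells. Of the 29 small-subunit genes, 10 decreased and 6 increased in A549 cells, and 11 decreased and 7 increased in BEAS-2B cells. These are orders of single libraries, and the share of all entries with such an order was not computed. The counts are therefore a description and no evidence of a dose response of the family.

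The summed counts of the family, as CPM of the library total, were lower in the treated libraries than in the control of each line. Large-subunit genes held 3791, 2930 and 2856 CPM at 0, 1 and 5 ng/mL in A549 and 3257, 2920 and 2618 CPM in BEAS-2B cells. The exact 95% Poisson intervals of control and 5 ng/mL did not overlap, from 3732 to 3850 and from 2813 to 2898 in A549 and from 3203 to 3311 and from 2568 to 2667 in BEAS-2B cells. Small-subunit genes held 3005, 2739 and 2448 CPM in A549 and 2306, 1923 and 1944 CPM in BEAS-2B cells. Within the same libraries the cytosolic ribosomal proteins, the corresponding proteins of the cytosolic ribosome, had a median log2 FC at 5 ng/mL of 0.25 in A549 cells, with 11 of the 78 entries over the minimum upregulated and 13 downregulated, and of 0.16 in BEAS-2B cells, with 0 of 77 upregulated and 3 downregulated. Summed, the cytosolic genes held 107913 and 122841 CPM at 0 and 5 ng/mL in A549 and 88928 and 95391 CPM in BEAS-2B cells. A sum follows its most abundant genes. MRPL33, the highest large-subunit gene of untreated A549 cells, went there from 1455 to 391 normalized counts at 5 ng/mL. The sums of the family also depended on the denominator. With the effective library size the small-subunit genes of A549 cells had 2812, 2875 and 2641 CPM, which is no fall at 1 ng/mL.

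Before treatment the median log2 FC of A549 against BEAS-2B cells was 0.48 over the 77 genes. Of these, 17 were higher in A549 cells by an FC of at least 2 and 2 were lower, MRPL27 and MRPL54. For this comparison the share of all entries was not computed without a minimum. Beyond counting error 44 were higher and 15 lower. Over the minimum these were 39 and 15 of 67 members, against 2864 and 3147 of all 7329 entries. Over the minimum, 8 large-subunit and 4 small-subunit genes were higher and 2 and 0 were lower, against 18.1% and 18.9% of all 7329 entries, and the medians were 0.35 and 0.49 where that of all entries was -0.05. Higher values in A549 cells were not particular to the family. The cytosolic ribosomal proteins over the minimum had a median of 0.36, with 15 of 78 higher and 1 lower. Of the 67 members, 10 passed the minimum through the A549 library alone and therefore had to be higher there. Another 2 passed it through the BEAS-2B library alone and had to be lower in A549 cells. The counts and medians over the minimum thus describe only the genes over it. The largest differences were those of MRPS28, 5.32-fold higher (3.42 to 8.62), and MRPL32, 4.67-fold higher (3.38 to 6.58), both of which were among the lowest genes of treated A549 cells. MRPL54 was 2.89-fold (2.23 to 3.77) and MRPL27 2.11-fold lower (1.87 to 2.39) in A549 cells. The control library of A549 cells enters both this comparison and the comparisons with its treated libraries.

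By normalized count the most abundant members over the 6 libraries were MRPS21, MRPL21, MRPL51, MRPS24 and MRPL24. Because the kit counts 3′ ends, these levels were not divided by transcript length. MRPS21 ranged from 929 to 1537 and moved little, with a ratio at 5 ng/mL of 1.18 in A549 cells (1.09 to 1.27) and 1.03 in BEAS-2B cells (0.934 to 1.13), and 8 named pseudogenes may share its reads. MRPL51 was lower in both lines, 1.49-fold (1.36 to 1.63) and 1.66-fold (1.51 to 1.83), and MRPL24 higher in both, 1.56-fold (1.43 to 1.69) and 1.41-fold (1.23 to 1.62). The least abundant were MRPL39, MRPL2 and MRPL50. MRPL2 had 54, 42 and 25 counts in A549 and 26, 27 and 19 in BEAS-2B cells, and MRPL50 had 86, 50 and 46 and then 25, 18 and 18, so that the intervals of their ratios in BEAS-2B cells, from 0.432 to 1.55 and from 0.418 to 1.55, hold both no difference and a decrease by an FC of 2.

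The log2 FC moved with the base composition at the 3′ end of the transcript, the part the kit reads. All 77 genes had a transcript in the GENCODE annotation, and the GC content of its last 300 bases was used. In A549 cells at 5 ng/mL the 26 members under 40% GC had a median log2 FC of -0.97 with 12 downregulated, the 29 members from 40% to 50% a median of 0.08 with 5 downregulated, and the 13 members with at least 50% a median of 0.70 with 0 downregulated and 2 upregulated. In BEAS-2B cells the medians were -0.54, 0.00 and 0.18, with 4, 1 and 0 downregulated. Across the large-subunit genes Spearman's rho between GC content and log2 FC was 0.71 in A549 and 0.58 in BEAS-2B cells, and across the small-subunit genes 0.31 and 0.09. Over all entries it was 0.35 and 0.11, and these correlations are across genes of the same libraries. In A549 cells 747 of 3253 entries under 40% GC, 280 of 1734 from 40% to 50% and 119 of 1696 from 50% were downregulated. Their medians were -0.21, 0.10 and 0.70, and 575 of the 1696 were upregulated. In BEAS-2B cells 370 of 3006, 237 of 1672 and 135 of 1665 were downregulated, with medians of -0.04, -0.06 and 0.23. Of the 17 downregulated members in A549 cells, 11 passed the minimum through the control library alone and had to be lower. MRPL13, MRPL34 and MRPL45 did so in BEAS-2B cells. Of the genes lower in both lines, MRPL13 had 33.7% GC, MRPL33 36.3%, MRPL34 37.7%, MRPL45 39% and MRPL49 40.7%. MRPL32 had 28%, MRPL39 34.7% and MRPL36 43.3%, while MRPL55 had 60% and MRPL37 53%. The lowest GC contents of all members were those of MRPS31 (23.3%) and MRPS30 (25.7%), which went the other way. Their log2 FC at 5 ng/mL were 0.18 and 0.52 in A549 and 0.21 and 0.39 in BEAS-2B cells, where MRPS30 was under the minimum. With the trend of all entries over GC content removed, the large-subunit medians were -0.13 in A549 and -0.19 in BEAS-2B cells, and 13 and 4 of its genes were downregulated.

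**Figure D4:**
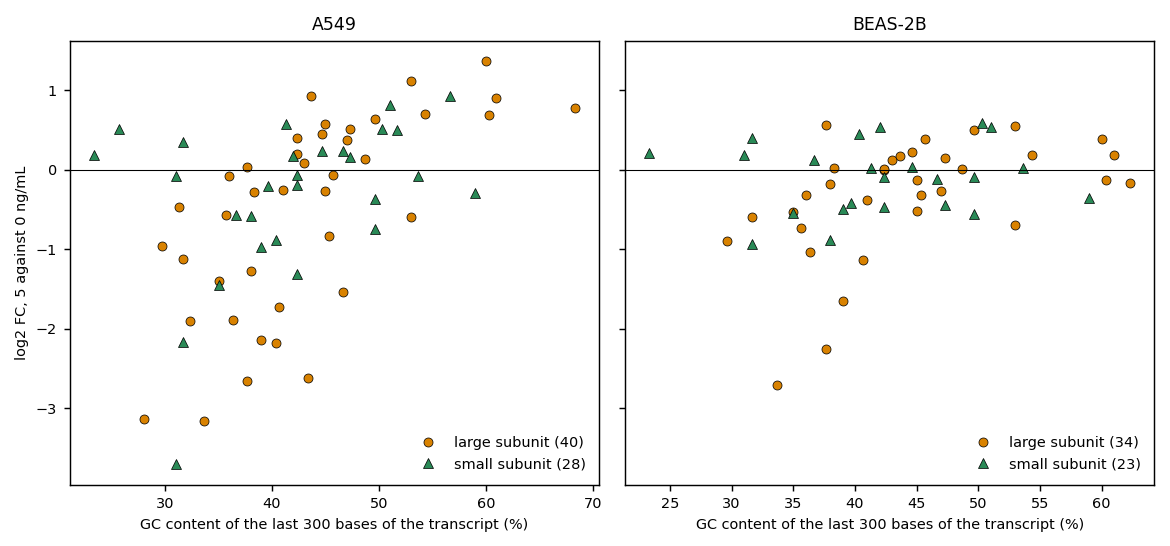
Log2 FC at 5 against 0 ng/mL TGF-β1 against the GC content (%) of the last 300 bases of the transcript, for members over the minimum in A549 cells (left, 40 large-subunit and 28 small-subunit genes) and BEAS-2B cells (right, 34 and 23). The members below -1 lie under 50% GC in both panels. No member with at least 50% GC was downregulated, against 119 of 1696 and 135 of 1665 of all entries.

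Shared letters were looked for in the RefSeq promoters (build GRCh38.p14, 250 bases before to 50 bases after the start site) of 68 of the 77 genes. The core of sites of ETS factors such as GABPA, CCGGAAG on either strand, occurred in 28 promoters (41.2%), against 10.7% of all 27305 promoters. The core of sites of YY1, AAGATGG on either strand, occurred in 23 (33.8%), against 6.06%. These motifs can overlap, since the ETS letters end as the YY1 letters begin. A motif of NRF1 was found in 8 promoters (11.8%, against 6.29%), TATAAA in 2 (2.94%, against 11.95%) and CACGTG, the E-box, in 6 (8.82%, against 7.44%). The following windows of 27 bases show genes of both directions with the same letters, the motif in capitals with 10 bases on each side, on the strand of the gene. The ETS letters of MRPL33, lower in both lines, and MRPS12, higher in both, stood at nearly the same distance from the start site, with the first base at -8 and -5, counting the start site as 0. The YY1 letters stood at 13 in MRPL45 and -68 in MRPL49, both lower in both lines, and at 23 in MRPS18B.
MRPL33, ETS, chr2:27771701-27771727, plus strand: gggccgtgccCCGGAAGcagttgttgt
MRPS12, ETS, chr19:38930929-38930955, plus strand: cggatagcgcCCGGAAGaggctagaag
MRPL45, YY1, chr17:38297171-38297197, plus strand: ttgcgggaacAAGATGGcagcccccat
MRPL49, YY1, chr11:65122105-65122131, plus strand: agctaccgcgAAGATGGagtcgagaaa
MRPS18B, YY1, chr6:30617853-30617879, plus strand: ggcgtacgtcAAGATGGcggcgtctgt

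Members with and without these letters were both found among the lower genes. Among genes with a promoter in the table and over the minimum in A549 cells at 5 ng/mL, the 25 genes with the ETS letters had a median log2 FC of 0.08 with 3 downregulated, and the 36 without had -0.23 with 10. For the YY1 letters the medians were -0.13 in 22 genes with 6 downregulated and -0.08 in 39 with 7. In BEAS-2B cells the medians were 0.00 in 24 and -0.20 in 28 genes for ETS, and -0.29 in 16 and 0.00 in 36 genes for YY1. The letters are a description and show no binding. MRPL46 and MRPS11, head to head on chromosome 15 with start sites 33 bases apart, had log2 FC at 5 ng/mL of 0.38 and 0.50 in A549 and of -0.27 and -0.25 in BEAS-2B cells. The intervals of their BEAS-2B ratios, from 0.662 to 1.04 and from 0.594 to 1.17, include no difference. MRPS11 was also under the minimum there.

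Of the nuclear regulators known for mitochondrial genes, YY1, ESRRA and PPRC1 were over the minimum, and 0 of these 3 were called in either line. YY1 had log2 FC at 5 ng/mL of 0.05 in A549 and -0.08 in BEAS-2B cells, ESRRA 0.03 and -0.44, and PPRC1 0.02 and 0.81. The others had few counts, given here without scaling. The A549 libraries held 4144476, 7841350 and 6101351 counts in total at 0, 1 and 5 ng/mL. These raw counts are therefore not comparable as levels between the doses. PPARGC1A, the coactivator known as a driver of mitochondrial biogenesis, had 73, 35 and 20 counts in A549 and 4, 0 and 0 in BEAS-2B cells. NRF1 had 41, 114 and 99 counts and 75, 81 and 84 counts, GABPA 18, 8 and 10 and then 14, 6 and 18, GABPB1 56, 108 and 58 and then 56, 29 and 25, PPARGC1B 34, 47 and 21 and then 4, 3 and 3, and MYC 55, 47 and 27 and then 20, 24 and 19.

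Other genes of mitochondrial translation were given as lists. Of 7 ribosome components outside the symbol pattern, all 7 were over the minimum in both lines, and DAP3, a GTP-binding protein of the small subunit, was downregulated in A549 cells (log2 FC -2.06) and had -0.83 in BEAS-2B cells. Of 14 translation factors, 12 were over the minimum in A549 cells, and TSFM, which recharges the elongation factor, MTFMT, which formylates the initiator tRNA, and C12orf65, which rescues stalled ribosomes, were downregulated (-2.19, -2.16 and -1.08). C12orf65 was also the only one of 9 called in BEAS-2B cells (-1.16). TUFM, the elongation factor itself, had 0.65 and 0.29. In A549 cells DAP3, TSFM and MTFMT passed the minimum through the control library alone and therefore had to be lower.

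Of 26 genes for assembly of the ribosome and modification of its RNA, 17 were over the minimum in A549 cells and METTL17, C1QBP and NOA1 were downregulated (log2 FC -3.95, -2.75 and -1.13). In BEAS-2B cells 13 were over it, C1QBP (-1.32) and the rRNA methyltransferase TFB1M (-1.11) were downregulated, and the methyltransferase NSUN4 was upregulated (1.09). METTL17, with 55, 13 and 5 counts, was under the minimum there. Of 25 entries of mitochondrial aminoacyl-tRNA synthetases, 7 and 6 were over the minimum. TARS2 was downregulated in both lines (-2.37 and -1.23) and CARS2 in BEAS-2B cells (-1.21). Among 6 genes of mitochondrial transcription and RNA stability, TFAM, which packages mitochondrial DNA and starts its transcription, was downregulated in both lines (-1.25 and -1.18), and LRPPRC in A549 cells only by these criteria (-1.16, against 0.04 in BEAS-2B cells), a difference that was not tested. METTL17, NOA1 and TARS2 in A549 cells passed the minimum through the control library alone and therefore had to be lower. The same holds for C1QBP, TARS2 and CARS2 in BEAS-2B cells, while NSUN4 passed it there through the treated library alone. These calls thus describe only the genes over the minimum. Of all entries, 17.1% and 11.6% were downregulated in A549 and BEAS-2B cells.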

How the data were processed

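Whole-number read counts per gene symbol, 1 table for each of the 6 libraries, were used as the authors deposited them, without normalization. Libraries were prepared from total RNA with the QuantSeq 3′-mRNA FWD kit and quantified with ExDEGA. The submitters' processing notes list Bowtie2, bedtools and build hg19 without versions, and the strand setting, filters and treatment of reads with several matches are not given in the sources used here. Each file's condition was taken from its label. Columns of per-sample values outside these samples numbered 0.

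Counts were scaled with edgeR 4.0.16 TMM factors in R 4.3.3 over all 25737 entries, and a pseudocount of 1 was added before log2. Later steps ran in Python 3.11.15 (pandas 2.3.3, numpy 2.4.6, scipy 1.17.1), and figures were drawn with matplotlib 3.10.9. Total counts of 4120624 to 7841350 set the precision, given as exact 95% Clopper-Pearson intervals for ratios. Reads carried no molecular identifiers, so intervals cover counting error only. With 1 library per condition, no spread between cultures was known. A quasi-likelihood fit (edgeR, entries kept by filterByExpr with a minimum count of 10) over the 6 libraries, with the cell line as a block and the dose as a factor, was added after seeing the data. The steps were tested on simulated data.

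Genes were named by rule: the 5 largest rises and 5 largest falls in each line at 5 ng/mL over the minimum, genes past the limit in the same direction or beyond counting error in opposite directions in both lines, the 5 largest differences between the lines, the 5 highest and 3 lowest levels, the 3 nearest the median of the family, the MRPS18 paralogs and the regulators. MRPL36, MRPS9, MRPS22, MRPL12, MRPL23, MRPL28, the pair MRPL46 and MRPS11, and single genes of the related lists were named after their values were seen. The members and lists were chosen with earlier results of these data known. Transcript ends came from GENCODE for GRCh38, matched by symbol for 18541 of 24462 symbols, and promoters from RefSeq, so that positions describe the genes and not the intervals counted on hg19. Alternatives were DESeq2 1.42.0 size factors, total counts, upper quartile factors, TMM within each line, pseudocounts of 0.1 and 5, a filter of 10 counts, other minimums, a limit of 1.5, CPM, the effective library size, summed counts and MRPS18A and MRPS30 counted with the large subunit. Removing the GC trend and a minimum on the mean of the 6 libraries were added after seeing the data. The miRNA libraries of the study were not analysed here, and 1 gene of the treatment check is not reported here.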

Additional observations from a re-analysis of the deposited data

Results flagged for a closer look

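MRPS24 moved in opposite directions in the lines at both doses. Its log2 FC was 0.22 at 1 ng/mL and 0.16 at 5 ng/mL in A549 cells and -0.41 and -0.45 in BEAS-2B cells, a difference between the lines of 0.61 at 5 ng/mL. The difference was not tested, and both doses of a line share its control. With total counts in place of TMM factors the value in A549 cells at 5 ng/mL was -0.047.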

How the results depend on the processing

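No paired analysis was possible because the labels give no replicate numbers to pair, other than the fit with the cell line as a block. No replicate could be left out, since each condition had 1 library. In that fit the 7 lower large-subunit genes at 5 ng/mL became 8 with both doses together, 9 without a filter and 8 with DESeq2. The 1 lower small-subunit gene, MRPS36, is grouped there by its symbol only. It became 2 genes with both doses together (MRPS22 and MRPS36) and 2 without a filter (MRPS28 and MRPS36), and stayed 1 with DESeq2. Among all entries, 1181 of 13157, 1145 of 18959 and 1003 of 12646 were lower in these fits, in the same order. With both doses together MRPL55 was called higher, where 781 of all 13157 entries were higher. Of the other recomputed values for the subunits, 272 stayed within the tolerance of counting error (1.5 times for counts of genes) and 28 moved. DESeq2 size factors, upper quartile factors, TMM within each line, pseudocounts of 0.1 and 5, the filter of 10 counts and counting MRPS18A and MRPS30 with the large subunit moved none of them. Total counts shifted the median of all entries at 5 ng/mL from 0.11 to -0.14 in A549 cells, while BEAS-2B cells went from 0.03 to -0.12. Relative to that median, the large subunit stayed between -0.38 and -0.33 in A549 cells and between -0.25 and -0.18 in BEAS-2B cells over the scalings.

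The number of large-subunit genes upregulated in A549 cells (2) was 1 with total counts, 1 with the GC trend removed, 8 at a limit of 1.5 and 0 with log2(CPM + 1), which also left 2 of 13 downregulated. The 4 downregulated small-subunit genes of A549 cells became 1 at an ND value of 8, 2 with the minimum on the mean, 7 at 1.5 and 0 with CPM, and 2 were upregulated at 1.5. The SD of the small subunit in A549 cells was 0.669 at an ND value of 8 and 0.701 with the minimum on the mean. In BEAS-2B cells the 5 downregulated large-subunit genes became 8 without a minimum, 2 at an ND value of 8, 9 at 1.5 and 1 with CPM, and the small subunit had 2 downregulated genes with total counts and 2 at 1.5, with 1 upregulated. The ratio of summed counts of the large subunit in A549 cells at 1 ng/mL was -0.21 on the log2 scale, against a median of 0.02. With the effective library size, the summed CPM were 3547, 3076 and 3081 for the large and 2812, 2875 and 2641 for the small subunit in A549 cells, and 3011 and 2132 in untreated BEAS-2B cells. The CPM scale is lower than that of the normalized count, so fewer genes reached the minimum. For the other values the cause was not tested.

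Of the recomputed values of single genes, 547 stayed within tolerance, 25 moved and 4 changed sign. With total counts, MRPS24 had -0.047 and MRPS18B -0.033 in A549 cells. With the GC trend removed, MRPL38 had -0.053 in A549 cells and MRPL41 -0.20 in BEAS-2B cells. Depth limits the genes with few counts: MRPL39, MRPL2, MRPL50 and MRPS28 in BEAS-2B cells had at most 27 counts in any library there.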
